A study of Mus musculus with 9 samples.

Results

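The phospholipase D (PLD) family of the mouse has 6 members, Pld1 to Pld6, which were chosen by name and make up 6 of the 52550 genes counted in the spinal cord. FIPI, the drug given in this study, inhibits the enzymes encoded by Pld1 and Pld2. RNA was measured by sequencing on day 7 in 3 groups of 3 adult female C57BL/6N mice. Sham mice had a laminectomy with no contusion, and no injection is described for them. SCI mice had a thoracic contusion and daily intraperitoneal DMSO, the vehicle. SCI+FIPI mice had the same contusion and daily intraperitoneal FIPI. Contusion and vehicle therefore cannot be told apart in SCI against Sham. All 6 members passed the filter on low counts, which kept 18699 genes.

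PLD1 and PLD2 cut phosphatidylcholine into choline and phosphatidic acid, a lipid that recruits and activates signalling proteins at membranes. PLD1 has little activity until small GTPases or protein kinase C switch it on, while PLD2 is active at rest, and both need the lipid PIP2. PLD3 and PLD4 carry the family fold but act in endosomes and lysosomes as exonucleases on single-stranded nucleic acids, which limits the ligands that reach Toll-like receptors. PLD6 sits on the outer surface of mitochondria, where it serves mitochondrial fusion and the piRNA pathway, and PLD5 has no known enzyme activity.

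The family is defined by the HKD motif, in which a histidine, a lysine and an aspartate stand at a fixed spacing and form the catalytic site. The codons of this motif are shown for Pld1 to Pld4, the members that the drug targets and those that rose most after injury. Each stretch below holds 24 bases of the coding strand of GRCm38, 5′ to 3′, with the codons of histidine, lysine and the last residue in capitals.
Pld1, the first site: CATgagAAGcttgtcattatcGAC
Pld1, the second site: CACagcAAGttgttaattgctGAC
Pld2, the first site: CACgagAAGctcctggtggtaGAC
Pld2, the second site: CACagcAAGatgctcattgcgGAT
Pld3, the first site: CACaccAAGttctgggtggtgGAT
Pld3, the second site: CACaacAAGtacatggtgactGAA
Pld4, the first site: CACtccAAAttctgggttgtgGAT
Pld4, the second site: CACagcAAGttcatggtcacaGAC

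The sites of Pld1 lie in exons 14 and 24 of 27 at chr3:28076442-28076465 and chr3:28120786-28120809, on the forward strand. Those of Pld2 lie in exons 14 and 22 of 25 at chr11:70552737-70552760 and chr11:70555688-70555711, also on the forward strand. For Pld3 they are in exons 9 and 13 of 14, at chr7:27539404-27539427 and chr7:27532591-27532614 on the reverse strand, and the second ends in a glutamate codon in place of aspartate. Pld4 has its sites in exons 6 and 10 of 11, at chr12:112765048-112765071 and chr12:112768082-112768105 on the forward strand. In the 536 codons of Pld5 the pattern, with either aspartate or glutamate at its end, was found 0 times. Pld3 and Pld4 shared 21 of 24 bases at the first site and 19 of 24 at the second, and Pld1 and Pld2 shared 16 and 19. The other pairs of these 4 genes shared 10 to 16 bases at the first site and 13 to 17 at the second, so that at the first site Pld1 was no closer to Pld2 than Pld2 was to Pld3.

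Each gene is a locus of its own, and no stretch of 50 bases of the longest transcript of any member was found in a transcript of another gene. The search read transcripts in their own direction only, so it could not find sequence shared with an antisense gene. Pld1 (ENSMUSG00000027695) spans chr3:27938695-28133362 and Pld2 (ENSMUSG00000020828) spans chr11:70540064-70558110. Pld3 (ENSMUSG00000003363) spans chr7:27532000-27553218, Pld4 (ENSMUSG00000052160) chr12:112760655-112768990, Pld5 (ENSMUSG00000055214) chr1:175962306-176275312 and Pld6 (ENSMUSG00000043648) chr11:59783897-59787645. An antisense pseudogene, Gm10418, overlaps 7.01% of the exonic length of Pld2, and its own count was between 0 and 2 in every mouse.

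Total counts lay between 20806000 and 24582377 over the 9 libraries, so depth was alike between groups. The labels number the libraries of a group without saying that each is a separate animal, so that p-values measure the spread between these libraries, which may be technical in part. The markers of neurons, astrocytes and oligodendrocytes were all found, which matches the labelled tissue. RNA levels give no measure of the activity of the enzymes.

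In the uninjured cord most of the family's RNA belonged to Pld3, which is not a target of the drug. Levels are given as FPKM, the count scaled to the exonic length of the gene and to the total count of the mouse, which allows genes of different length to be compared. In Sham, Pld3 stood at 74.2 ± 4.44 FPKM (SD, n = 3), followed by Pld4 at 7.27 ± 1.24 and Pld2 at 7.02 ± 0.125, whose ranges over the mice overlapped. Pld1 had 1.98 ± 0.222 FPKM, Pld5 1.49 ± 0.116 and Pld6 1.05 ± 0.235, and no other neighbours in this order overlapped. Pld3 made up 79.7% of the summed FPKM of the family in Sham, 79.8% in SCI and 78.9% in SCI+FIPI. The drug targets Pld1 and Pld2 together made up 9.7% ± 0.701 in Sham, 5.89% ± 0.503 in SCI and 6.47% in SCI+FIPI (SD, n = 3). These shares depend on the length used. Exonic length was 12961 bases for Pld1, whose longest transcript has 4849, but 2924 against 2297 for Pld3. With the longest transcript, Pld1, Pld2 and Pld3 stood at 5.31, 12 and 94.4 FPKM in Sham and at 7.26, 21.8 and 268 in SCI. The share of the drug targets is larger with that length, and Pld3 stays first.

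**Figure D1:**
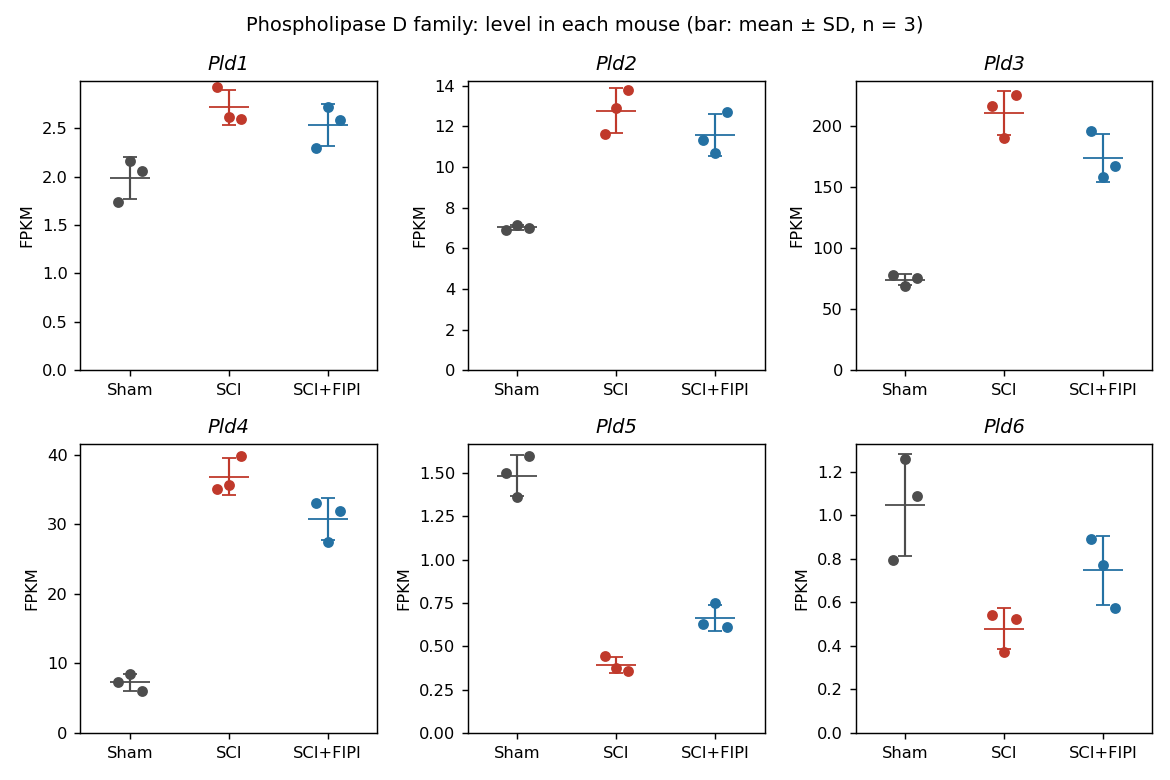
The level of each member in FPKM (vertical axes, each starting at 0) is plotted for the 3 mice of Sham, SCI and SCI+FIPI, 1 point per mouse, with bars for the mean ± SD (n = 3). Pld1 to Pld4 are higher in every SCI mouse than in any Sham mouse, and Pld5 and Pld6 are lower, while in SCI+FIPI the points of Pld5 lie between those of the other groups.

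SCI was compared with Sham to ask which members changed after contusion. A gene was called when it passed 2 limits, a size of 0.5 for its log2 fold change and 0.05 for its adjusted p-value by edgeR. Pld2, Pld3 and Pld4 rose, 3 of 6 members, where 24.4% of all genes tested were called higher. Pld5 and Pld6 fell, 2 of 6, where 22.5% were called lower. The 5 calls of 6 stand beside 47% of all genes called in either direction. All 6 members passed the limit on the p-value, as did 65.9% of all genes, and in all 6 the SCI and Sham mice did not overlap, as in 70.5% of all genes.

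Among the signalling enzymes, the counts of Pld1 were 468, 635 and 640 in the Sham mice and 915, 835 and 808 in the SCI mice. In FPKM this is 1.74, 2.16 and 2.06 against 2.93, 2.62 and 2.6, so all SCI mice lay above all Sham mice, as in 35.6% of all genes tested. Its log2 fold change was 0.48 (SE 0.0914, adjusted p = 0.000293, edgeR), just under the limit of 0.5. The value passed that limit in 4 of the 6 fits that left out a mouse, reached 0.50 with no filter on low counts and 0.675 with a correction for GC content and gene length.

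Pld2 had FPKM of 6.9, 7.15 and 7.01 in Sham and of 11.6, 12.9 and 13.8 in SCI. No SCI mouse came near the Sham mice, and the Sham mice were nearly equal. The log2 fold change was 0.89 (SE 0.0756, adjusted p = 8.78e-08, edgeR). Within a mouse, the log2 ratio of Pld2 to Pld1 in FPKM was 1.83 ± 0.143 in Sham and 2.23 ± 0.221 in SCI (SD, n = 3), and the groups overlapped (difference 0.40, two-sided exact permutation p = 0.2). With 3 mice against 3 this test cannot give a p under 0.1, so it does not settle whether the 2 drug targets changed unequally. The difference in the ratio was 0.313 to 0.525 with each mouse left out in turn, and the 95% intervals of the log2 fold changes were 0.285 to 0.676 for Pld1 and 0.728 to 1.05 for Pld2. With the correction for GC content and gene length the 2 log2 fold changes were nearly equal, at 0.675 for Pld1 and 0.691 for Pld2. Whether the 2 changed unequally thus depends on the processing.

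The endolysosomal exonucleases Pld3 and Pld4 had the largest log2 fold changes of the members that rose. Pld3 had FPKM of 77.8, 69.2 and 75.4 in Sham and of 216, 190 and 225 in SCI, and the lowest SCI mouse was far above the highest Sham mouse. Its mean CPM, the count scaled to the total of the mouse alone, went from 215 to 623, a ratio of 2.89, and its log2 fold change was 1.53 (SE 0.0907, adjusted p = 2.93e-09, edgeR).

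Pld4 had FPKM of 7.33, 8.48 and 6 in Sham and of 35.1, 35.6 and 39.9 in SCI. The lowest SCI mouse thus stood several times above the highest Sham mouse. The ratio of mean CPM was 5.18 and the log2 fold change was 2.37 (SE 0.112, adjusted p = 4.09e-09, edgeR), the largest of the family in size and at place 869 among the 18699 genes tested. The log2 ratio of Pld4 to Pld3 within a mouse was −3.36 ± 0.313 in Sham and −2.51 ± 0.106 in SCI (SD, n = 3). The groups did not overlap (difference 0.85, exact permutation p = 0.1, adjusted p = 0.129 over 45 comparisons of member pairs). This was not particular to the pair, since in SCI against Sham every member pair but Pld2 to Pld1 was apart with the same p. With 3 mice against 3, 0.1 is the smallest p this test can give. The share of Pld4 in the family's FPKM was 7.84% in Sham and 14% in SCI.

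Pld5, the member without the motif, had counts of 314, 312 and 387 in Sham and of 108, 93 and 87 in SCI. All SCI mice were below all Sham mice, as for 35% of all genes. In mean CPM the level was 14.9 ± 1.35 in Sham and 4.01 ± 0.454 in SCI (SD, n = 3), a ratio of 3.71 of Sham to SCI. The log2 fold change was −1.89 (SE 0.135, adjusted p = 1.48e-08, edgeR).

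Pld6, the mitochondrial member, was the least counted, with 29, 50 and 46 counts in Sham and 23, 16 and 22 in SCI. The groups did not overlap, but at these counts the error was the widest of the family. Its log2 fold change was −1.10 (SE 0.288, adjusted p = 0.00359, edgeR).

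**Figure D2:**
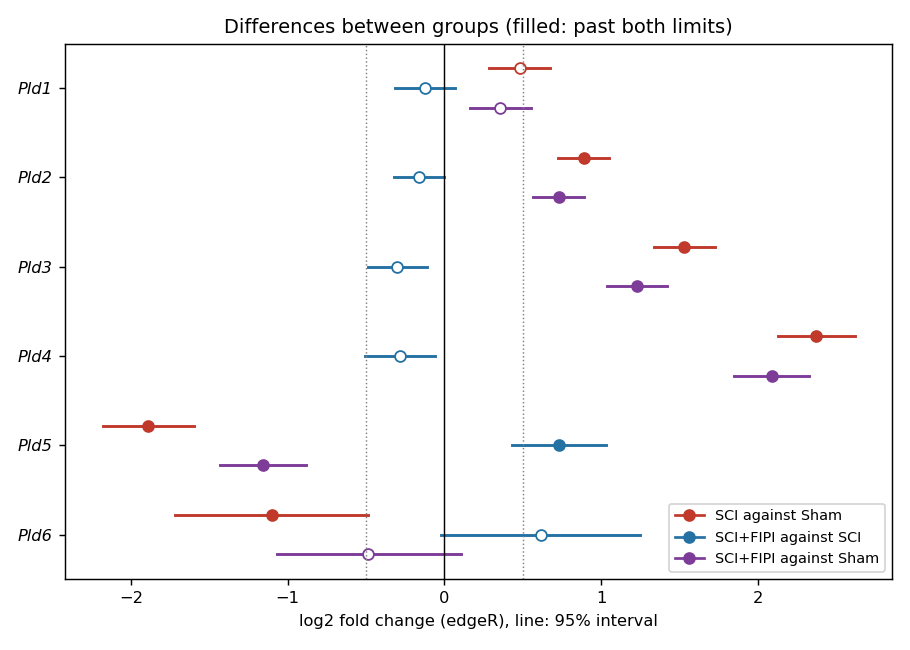
The log2 fold change of each member from edgeR (horizontal axis) is plotted for SCI against Sham, SCI+FIPI against SCI and SCI+FIPI against Sham, with lines for the 95% interval, filled points for values past both limits and dotted lines at the fold limit of 0.5. Pld5 at 0.73 is the only filled point of SCI+FIPI against SCI, and the interval of Pld6 is the widest in each comparison.

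SCI+FIPI was compared with SCI to ask how the RNA of the family stood when the drug was given after injury. Pld5 was the only member past both limits, and it was higher, where 3.06% of all genes were called, 2.36% higher and 0.695% lower. The drug targets Pld1 and Pld2 were not called. Pld4, Pld5 and Pld6 did not overlap between the groups, as was so for 30.2% of all genes. This comparison shares its SCI mice with the one before, so that the values of the members in the 2 comparisons are not independent.

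Pld1 had FPKM of 2.3, 2.72 and 2.59 in SCI+FIPI, within the span of Sham and SCI, and overlapped SCI. The log2 fold change was −0.12 with a 95% interval from −0.316 to 0.0707 (adjusted p = 0.435, edgeR). Pld2 had FPKM of 11.3, 10.7 and 12.7 and also overlapped SCI, at −0.16 with an interval from −0.319 to −0.00292 (adjusted p = 0.19, edgeR). Neither interval reaches a log2 fold change of 0.5 in size. The log2 ratio of Pld2 to Pld1 differed by −0.04 between the groups (exact permutation p = 0.8).

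Pld3 had FPKM of 196, 158 and 167 in SCI+FIPI, and its highest mouse overlapped the lowest SCI mouse. The log2 fold change was −0.30 (interval −0.49 to −0.111, adjusted p = 0.0469, edgeR), so the p-value passed its limit and the fold did not. The p-value limit alone was passed by Pld3 and Pld5, and by 9.63% of all genes. That adjusted p was under 0.05 in 8 of 14 other fits and reached 0.217 without SCI+FIPI mouse 2. Pld4 had FPKM of 33, 27.4 and 31.9, all below the SCI mice, as for 14.5% of all genes, with a log2 fold change of −0.28 (interval −0.509 to −0.0592, adjusted p = 0.107, edgeR). The log2 ratio of Pld4 to Pld3 was −2.49 ± 0.095 in SCI+FIPI (SD, n = 3) and differed by 0.02 from SCI (exact permutation p = 0.9).

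Pld5 had counts of 142, 178 and 146 in the SCI+FIPI mice, all above the SCI mice and all below the Sham mice. In CPM this was 6.67 ± 0.764 (SD, n = 3), 1.66 times the SCI mean. The log2 fold change was 0.73 (SE 0.14, adjusted p = 0.00765, edgeR), at place 833 of the 18699 genes by size. Without SCI+FIPI mouse 2, the highest of its group, it was 0.63 and the call was lost (adjusted p = 0.0516, edgeR). Pld6 had 35, 32 and 24 counts, all above the SCI mice, as for 15.7% of all genes. Its log2 fold change of 0.62 was not called (interval −0.019 to 1.25, adjusted p = 0.214, edgeR).

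The comparison of SCI+FIPI with Sham shows how far the members stood from the uninjured cord under the drug, with the same mice used again. Pld2, Pld3 and Pld4 were called higher, where 21.2% of all genes were, and Pld5 was called lower, where 17% were, so that 4 of 6 members stand beside 38.1% of all genes. All members but Pld6 passed the p-value limit, as did 59.1% of all genes, and were apart between the groups, as were 66.3%. The log2 fold changes were 0.73 for Pld2 (adjusted p = 1.23e-06), 1.23 for Pld3 (adjusted p = 4.97e-08), 2.09 for Pld4 (adjusted p = 2.5e-08) and −1.16 for Pld5 (adjusted p = 2.37e-06, all edgeR). Pld1 at 0.36 (adjusted p = 0.00367, edgeR) and Pld6 at −0.48 (adjusted p = 0.145, edgeR) were not called. With the correction for GC content and length both passed the limits, at 0.511 and −0.827.

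The order of the levels was the same in SCI and SCI+FIPI. Pld3 came first with 210 ± 18.1 and 173 ± 19.6 FPKM, then Pld4 with 36.9 ± 2.66 and 30.8 ± 2.97, Pld2 with 12.7 ± 1.11 and 11.6 ± 0.995 and Pld1 with 2.72 ± 0.184 and 2.53 ± 0.215 (SD, n = 3). Pld6 and Pld5 were last and overlapped, at 0.478 ± 0.0941 and 0.393 ± 0.0449 FPKM in SCI and 0.747 ± 0.159 and 0.663 ± 0.0756 in SCI+FIPI. With the longest transcript as the length, Pld6 and Pld5 changed places in both groups, as did Pld4 and Pld2 in Sham. Summed over the family, the level was 93 ± 3.23 FPKM in Sham, 264 ± 20.2 in SCI and 220 ± 21.9 in SCI+FIPI.

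The bulk cord holds many cell types, and fewer cells of a type and less RNA per cell cannot be told apart. The summed FPKM of 12 markers of microglia and macrophages had a lowest, median and highest mouse of 244, 361 and 367 in Sham, 2437, 2473 and 2955 in SCI and 1956, 2241 and 2264 in SCI+FIPI. Of these markers 11 of 12 rose after injury, where 24.4% of all genes tested were called higher. Their median log2 fold change was 2.16, and the exception was P2ry12 at 0.04. Between SCI+FIPI and SCI, 0 of 12 were called by edgeR, DESeq2 or limma-voom, although 5 had an unadjusted p under 0.05 in edgeR, and the median was −0.30 with 11 of 12 below 0. These levels moved with Pld3 and Pld4, and their part in the result was not tested.

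Set against that marker sum within each mouse, the log2 ratio of Pld4 was −5.47 ± 0.157 in Sham, −6.15 ± 0.0529 in SCI and −6.13 ± 0.0398 in SCI+FIPI (SD, n = 3). The difference between SCI and Sham was −0.68 against the summed markers (exact permutation p = 0.1) and 0.83 against Csf1r alone, the receptor for the growth factor of these cells, so that its sign depends on the marker. For Pld3 the difference was −1.53 against the sum (exact permutation p = 0.1) and −0.02 against Csf1r alone. In SCI most of the sum came from C1qa, C1qb and Cd68, at 1009, 783 and 540 FPKM. Their log2 fold changes in SCI against Sham were 3.06, 3.17 and 4.55, beside 1.55 for Csf1r. Between SCI+FIPI and SCI the ratios to the sum overlapped and differed by 0.02 for Pld4 (exact permutation p = 0.7) and by 0.00116 for Pld3 (exact permutation p = 1).

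Neurons were followed by 11 markers, whose summed FPKM was 1683, 1801 and 1922 in Sham, 562, 664 and 789 in SCI and 917, 926 and 1082 in SCI+FIPI (lowest, median and highest mouse). All 11 fell after injury (median log2 fold change −1.6), where 22.5% of all genes tested were called lower. Between SCI+FIPI and SCI, 6 of 11 were called higher (median 0.56), where 2.36% of all genes were. The mean levels of Pld5 and Pld6 stood in the same order over the groups as these markers, whose part in the result was not tested.

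**Figure D3:**
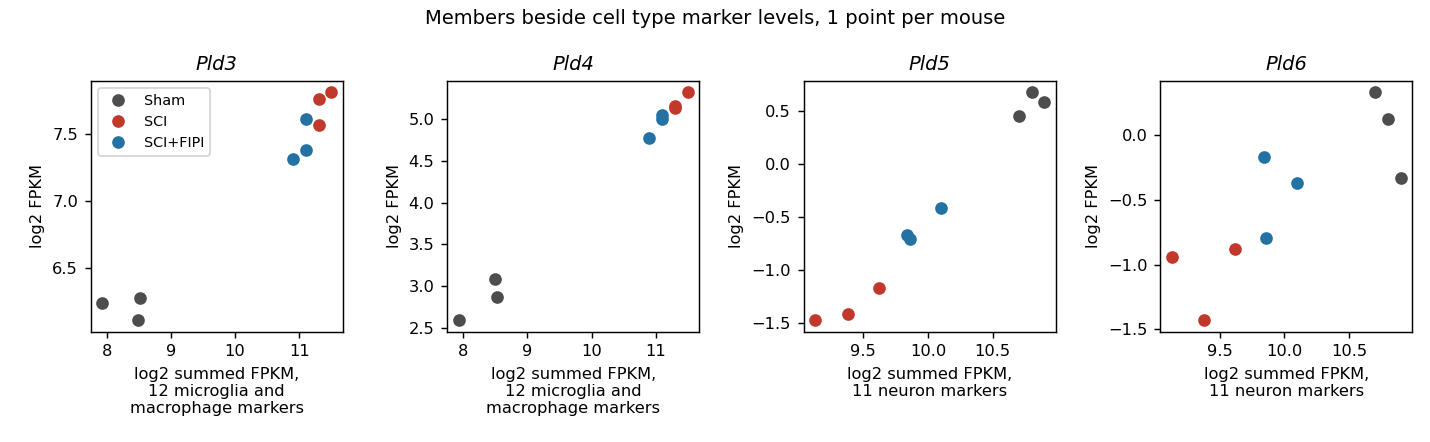
Each panel plots the log2 FPKM of a member (vertical axis) against the log2 of the summed FPKM of 12 microglia and macrophage markers (Pld3, Pld4) or 11 neuron markers (Pld5, Pld6), 1 point per mouse, coloured by group. For Pld4 the SCI+FIPI mice lie just below and left of the SCI mice, and for Pld5 they lie between the SCI and the Sham mice on both axes.

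Other cell type markers moved after injury as well, where 24.4% of all genes tested were called higher and 22.5% lower. In SCI against Sham, 6 of 6 fibroblast and pericyte markers rose (median 2.44), as did 4 of 4 of oligodendrocyte precursors (median 1.17) and 3 of 5 endothelial ones (median 0.92). Astrocyte markers were split, with 3 of 7 higher and 2 of 7 lower. Those of oligodendrocytes fell in 4 of 7 (median −0.60), of lymphocytes and plasmacytoid cells in 2 of the 5 tested and of the ependyma in 1 of 4. The neutrophil, Schwann cell and skeletal muscle lists had 0 calls after injury by edgeR, DESeq2 and limma-voom, and 0, 1 and 0 genes with an unadjusted p under 0.05 in edgeR. Their medians were 0.12, 0.49 and 0.38, and Pmp2 of Schwann cells was at 0 in all Sham mice. Between SCI+FIPI and SCI the 1 edgeR call among these other lists was Rgs5 of pericytes, which fell by 0.505. The part of these cell types in the members' values was not tested.

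The partners of PLD1 and PLD2 were described from lists, beside a median of all genes near 0 (−0.003 in SCI against Sham and −0.001 in SCI+FIPI against SCI). Beside these lists and those below stand 24.4% of all genes tested called higher and 22.5% called lower in SCI against Sham. Between SCI+FIPI and SCI these shares were 2.36% and 0.695%. Of 14 small GTPases, a class of switches that includes activators of PLD1, 8 rose after injury and 0 fell (median log2 fold change 0.67). Rac2, the Rac of blood cells, had a log2 fold change of 3.20, Rhoc, a GTPase of cell movement, 2.17, Ralb 1.26 and Arf6, an activator of PLD at the plasma membrane, 0.98. Of 9 genes of conventional protein kinase C and PIP2 synthesis, 0 rose and 4 fell (median −0.38), among them Pip5k1b at −1.37, Prkcb at −0.89 and Pip4k2a at −0.73. Under FIPI 0 genes of either list were called against SCI by edgeR, DESeq2 or limma-voom, with medians of −0.18 and 0.13, although 8 of 14 and 3 of 9 had an unadjusted p under 0.05 in edgeR. Among them were Arf4 at −0.23 (adjusted p = 0.0277, edgeR) and Prkcb at 0.25 (adjusted p = 0.0183, edgeR).

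Phosphatidic acid is also made by diacylglycerol kinases (Dgk genes) and removed by lipins and phospholipid phosphatases. Of these 16 genes 4 rose after injury and 7 fell (median −0.23), where 24.4% of all genes were called higher and 22.5% lower. The 4 were Lpin3 at 1.28, Dgkz at 0.97, Plpp2 at 0.67 and Dgka at 0.53, while Dgkb at −1.82, Dgkk at −1.74, Dgkg at −1.67 and Dgke at −1.28 fell most. Under FIPI 2 of 16 were called against SCI, both higher: Dgkb at 0.58 (adjusted p = 0.00474, edgeR) and Dgkg at 0.50 (adjusted p = 0.028, edgeR), which lies on the fold limit. DESeq2 called 3 of the 16 and limma-voom called 1. Among 12 proteins that bind phosphatidic acid, 3 rose and 5 fell after injury (median −0.08), beside the same shares of all genes. Ncf1, a subunit of the phagocyte NADPH oxidase, was at 2.76, Dock2, a Rac activator of leukocytes, at 2.73 and Sphk1, a sphingosine kinase, at 0.94, against −1.39 for Prkce and −0.53 for Mtor, the growth kinase. Between SCI+FIPI and SCI, 0 of 12 were called by edgeR, DESeq2 or limma-voom and 6 had an unadjusted p under 0.05, with Prkce at 0.48 (adjusted p = 0.00389, edgeR) under the fold limit. Of 5 enzymes outside the family with PLD or lysophospholipase D activity, 0 rose and 2 fell after injury, Enpp2 (autotaxin, which makes lysophosphatidic acid) at −0.82 and Gdpd1 at −0.69, and between SCI+FIPI and SCI 0 of 5 were called by any of the 3 tools or had an unadjusted p under 0.05 in edgeR.

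**Figure D4:**
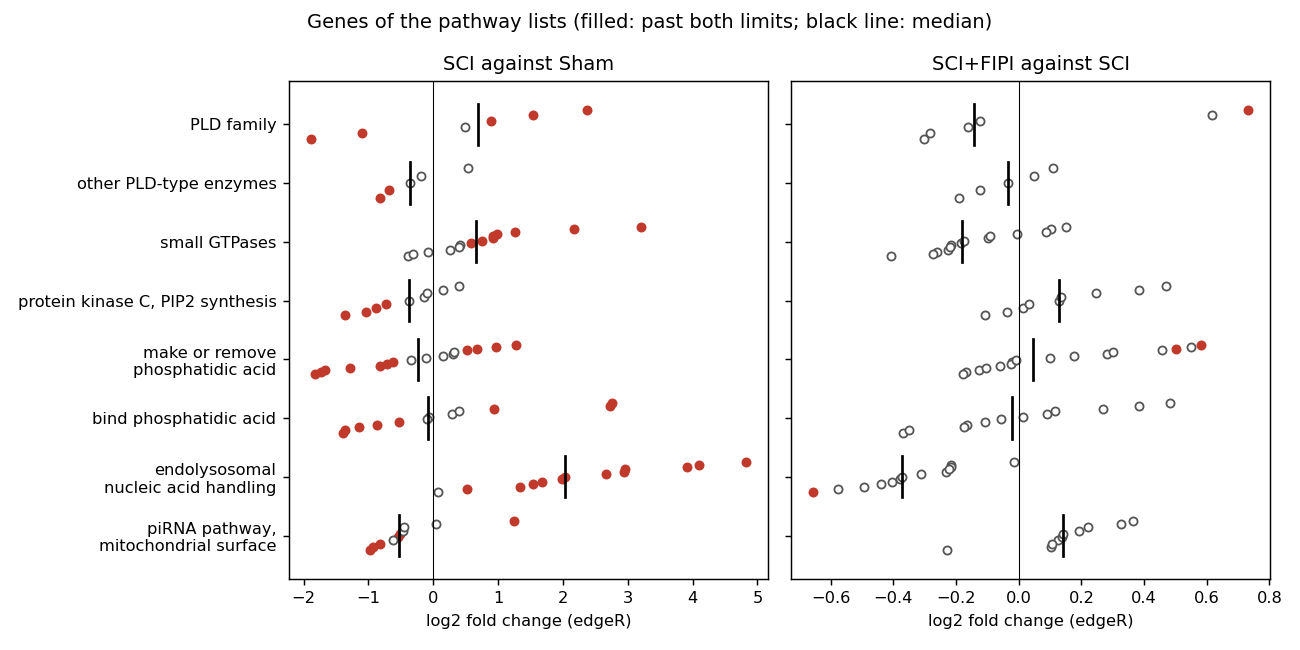
The log2 fold changes from edgeR (horizontal axis) of the genes of the PLD family and 7 related lists (rows) are plotted for SCI against Sham and SCI+FIPI against SCI, 1 point per gene, filled when past both limits, with a black line at the median of the list. The endolysosomal list has the highest median of the plotted lists after injury (2.03), and its points all lie below 0 in SCI+FIPI against SCI.

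Genes that handle nucleic acids in endosomes and lysosomes, beside Pld3 and Pld4, formed the pathway list with the highest median after injury, below the medians of the microglia and macrophage and of the fibroblast and pericyte markers. Of the 13 tested 12 rose after injury (median 2.03), led by Tlr8 at 4.82, Acp5, a lysosomal phosphatase, at 4.10, Slc15a3, an endolysosomal transporter, at 3.92 and the nuclease Dnase2a at 2.96. Tlr8 and Acp5 rose from low levels in Sham, 0.133 ± 0.0907 and 0.88 ± 0.933 FPKM (SD, n = 3), so the size of their change is uncertain. Tlr7, a receptor for single-stranded RNA, rose by 2.94 on the log2 scale and Unc93b1, the chaperone of these receptors, by 2.67, while Tlr3 at 0.08 was not called. Trex1, the listed gene that was not tested, had a level of 0 FPKM in every group and so has no fold change. Against SCI, 13 of 13 values under FIPI were below 0 (median −0.37), as were those of Pld4 at −0.28 and Pld3 at −0.30, and 1 was called, Tlr7, which fell by 0.656 (adjusted p = 0.0389, edgeR). The microglia and macrophage markers moved with this list as with Pld3 and Pld4.

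Of 15 genes of the piRNA pathway and of mitochondrial fusion and fission, listed beside Pld6, 10 were tested. After injury 5 fell, which were Tdrkh at −0.98, Opa1 at −0.93, Dnm1l at −0.83, Mfn2 at −0.54 and Mfn1 at −0.52, and Piwil4 rose at 1.24 from a mean of 0.0636 FPKM. Opa1, Mfn1 and Mfn2 carry out mitochondrial fusion, and Dnm1l carries out fission. Between SCI+FIPI and SCI, 0 of 10 were called by edgeR, DESeq2 or limma-voom and 3 had an unadjusted p under 0.05 in edgeR, with a median of 0.14.

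The genes whose log2 values over the 9 mice lay closest to each member, after centring, were taken from 14553 genes whose mean log2 CPM reached 1. The closest to Pld1 was Fars2 (root mean square difference 0.0508). Ext2 (0.0493), which builds heparan sulfate, and Dag1 (0.0495), which encodes dystroglycan, were among the 3 closest to Pld2. Pld3 was closest to Dpp7 (0.0744), which encodes a lysosomal peptidase. Pld4 was closest to Cotl1 (0.0615), Ikbke (0.0666) and Ppp1r18 (0.0676). The nearest to Pld5 were Pvalb (0.0758), a calcium-binding protein of interneurons, Pclo (0.0779), a scaffold of the presynaptic zone, and Kcnc1 (0.0806), a potassium channel. For Pld6 the closest, Pcdhb19, was no nearer than 0.159.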

How the data were processed

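Polyadenylated RNA of spinal cord around the injury was sequenced by Illumina. Reads were cleaned of adapters and bases of low quality, and the authors deposited raw counts per gene, with no normalization. The submitters' processing notes name GRCm38 and R 4.2.3. The aligner, the counting program, the annotation and the use of strand in counting are not given in the sources used here. All 9 columns were used, and 52403 of 52550 identifiers matched GENCODE M21, which gave symbols, positions and exonic length.

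Counts were analysed with edgeR 4.0.16 in R 4.3.3 by TMM factors, filterByExpr and a robust quasi-likelihood fit with 1 mean per group over all 9 mice (18699 genes, 6 residual degrees of freedom, biological coefficient of variation 9.3%). P-values were adjusted by Benjamini-Hochberg over all genes tested. Calls needed a log2 fold change of 0.5 or more in size and an adjusted p below 0.05, as in the study, whose methods name no test. Ratios within a mouse were compared by two-sided exact permutation tests, for which 3 against 3 give no p under 0.1. FPKM was the count over the total count and the merged exonic length. Genes near 20 counts, such as Pld6, carry wide counting error at 20806000 to 24582377 counts per mouse. The edgeR, DESeq2 and limma-voom fits were tested on simulated counts, in which few genes were changed, all of them above the level of Pld6. The ratios, the order by FPKM, the offsets, the closest genes and the HKD search were not tested in this way.

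Named genes are the members, those of the related pathway and cell type marker lists, and the 3 genes closest to each member. Members and lists were chosen with earlier results of these data known. Alternatives were RLE factors, no filter, a minimum of 10 counts per mouse, a replicate block, DESeq2 1.42.0, limma-voom (limma 3.58.1), offsets for GC content and length, only the 6 mice compared, no fold limit, Csf1r in place of the summed markers, the longest transcript as length, and each mouse left out. HKD sites were searched in the longest coding sequence of each member as translated codons. Protein sequences were not used here, and some genes of these lists and 1 site are not reported here.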

Additional observations from a re-analysis of the deposited data

How the results depend on the processing

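Of the 251 alternative fits of the 18 member fold changes, 242 kept the direction and the side of the limits, 8 passed limits that the main values missed, 1 lost its call and 0 turned direction. In SCI against Sham, Pld1 passed both limits with no filter (0.502) and with GC and length offsets (0.675), and leaving out a mouse gave 0.395 (without Sham mouse 1) to 0.534. It passed without Sham mouse 2 or 3 or SCI mouse 2 or 3. In SCI+FIPI against SCI, Pld5 lay between 0.634 and 0.832 with a mouse left out, and its adjusted p (edgeR) was 0.0516 without SCI+FIPI mouse 2. With the offsets, Pld1 (0.511) and Pld6 (−0.827) passed both limits in SCI+FIPI against Sham. In SCI against Sham they gave −1.42 for Pld6, 2.09 for Pld4, 1.27 for Pld3 and 0.691 for Pld2, close to the 0.675 of Pld1. DESeq2 gave no adjusted p for Pld6 in SCI+FIPI against SCI. The cause of these differences was not tested.

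Over all genes, the 572 calls of SCI+FIPI against SCI ranged from 189 to 1038 with a mouse left out (189 without SCI+FIPI mouse 2, 240, 341 and 1038 without SCI mouse 3, 2 and 1) and were 1800 with no fold limit, by which those of SCI+FIPI against Sham became 11060. Deviations of same-numbered mice correlated only weakly over genes (−0.0726 to 0.108), and not every mouse correlated best with its own number. All same-numbered pairs but SCI mouse 1 with SCI+FIPI mouse 1 were positive. Differently numbered pairs were of either sign (−0.108 to 0.0889). The replicate block gave 8744, 555 and 7115 calls in SCI against Sham, SCI+FIPI against SCI and SCI+FIPI against Sham and changed no member's call. Csf1r replaced the summed markers only in the ratios of the 6 members to that sum, 1 for each member in each comparison. Of these ratios 14, which is most of them, moved by more than the spread between mice. That of Pld4 turned from −0.68 to 0.83 in SCI against Sham, from −0.66 to 0.76 in SCI+FIPI against Sham and from 0.02 to −0.07 in SCI+FIPI against SCI. Depth limits Pld6 most, with 16 to 50 counts per mouse.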

Other observations

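The ratio of Pld5 and of Pld6 to the summed neuron markers was computed after the values had been seen, and is given as a description. The log2 ratio of Pld5 to the sum was −10.2 ± 0.096 in Sham, −10.7 ± 0.105 in SCI and −10.5 ± 0.0386 in SCI+FIPI (SD, n = 3). It differed by −0.49 between SCI and Sham and by 0.21 between SCI+FIPI and SCI, with no overlap of the groups in either case. For Pld6 the differences were 0.31 and 0.09, and the groups overlapped in both. The sum is weighted to its most abundant markers, and the value depends on the marker: in SCI against Sham the log2 fold changes of the 11 markers ran from −1.96 for Snap25 to −0.68 for Tubb3, with Slc17a6 at −1.89, the value of Pld5.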
